A study of Homo sapiens with 4 samples.

Results

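The deadenylases described here are 10 genes of the machinery that shortens the poly(A) tail of messenger RNA: CNOT1, CNOT2, CNOT3, CNOT4, CNOT6, CNOT7, CNOT8 and CNOT10 of the CCR4-NOT complex, and PAN2 and PAN3. They were measured by 29 probe sets, taken as every probe set that the platform annotation assigns to exactly 1 gene and to a gene of this list, out of 40914 such probe sets for 19774 genes. The list was drawn up with the array values known: CNOT7 had been seen among the genes with the largest positive difference in the DCUN1D1 knockdown. All differences below are from that same contrast. They are therefore given as a description, without a test of any member.

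A long poly(A) tail protects an mRNA from decay and helps its translation, and removal of the tail is the step that usually commits the mRNA to degradation. PAN2, a nuclease, trims long tails and is held on the poly(A)-binding protein by PAN3. CCR4-NOT then removes most of the tail, using a nuclease of the CAF1 type (CNOT7 or CNOT8) and another of the CCR4 type (CNOT6 or CNOT6L), which are assembled on the scaffold CNOT1. MicroRNAs and RNA-binding proteins recruit this complex to silence their target mRNAs in most cell types.

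RNA came from DU145, an established line from a human prostate carcinoma metastasis, infected with lentivirus carrying an shRNA against GFP (shGFP, the control, 2 arrays) or against DCUN1D1 (shDCUN1D1, 2 arrays). DCUN1D1 promotes the attachment of the small protein NEDD8 to cullins. The sample records give growth in DMEM for 16 h before extraction for all 4 cultures and mention DMSO without saying how it was used. The paper's methods give another schedule, a longer incubation after infection and a change of medium, and the 2 accounts were not reconciled here. The records call the arrays biological duplicates. According to the methods, 2 shRNAs to DCUN1D1 were used, and the array that received each is not stated. The comparison asks which transcripts differ when DCUN1D1 is depleted. The series title speaks of microRNA, but the arrays are Affymetrix HT U133 type arrays of mRNA probe sets.

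Signal was low throughout, which bears on every value below. A probe set is a group of short probes whose summarised brightness is given here as log2 signal, and a log2 difference of 1 is a doubling. Nonspecific probe sets that match no human transcript mark the background. The one with 20 G or C bases is called the background reference below. It read 2.97 and 3.30 in shGFP replicates 1 and 2 and 2.48 and 2.51 in shDCUN1D1 replicates 1 and 2. Its mean over the 4 arrays was 2.81, but the nonspecific means depended on base content. They were 0.88 with 3 G or C bases, 1.39 with 13 and 6.15 with 25. A value below the reference is therefore not shown to be background for its own probes, and another reference was not tested. Over all genes, 64.5% were above it in 0 arrays and 7.64% in all 4. Of the 23 nonspecific controls, 20 were lower in both knockdown arrays than in both control arrays, with a median difference of −0.29. The middle probe set of the spike-in control BioB differed more. It read 8.22 and 10.49 in shGFP replicates 1 and 2 and 6.37 and 6.22 in shDCUN1D1 replicates 1 and 2. shDCUN1D1 replicate 1 stood apart: in it 854 genes exceeded their value in every other array by over 2 log2, while the same count was 0 and 5 for shGFP replicates 1 and 2 and 0 for shDCUN1D1 replicate 2. The main member values are therefore also given without it. Of 8 epithelial and DU145 markers, VIM, KRT8 and CD44 were above the background reference in all 4 arrays, KRT18 only in shDCUN1D1 replicate 1, at 7.62, and KRT7, KRT19, EPCAM and CDH1 in none. Of the markers of other cells, 0 of 5 luminal prostate, 1 of 6 fibroblast (COL1A1), 0 of 4 endothelial and 0 of 4 leukocyte genes were above it in all 4 arrays. The summed linear signal of the 8 epithelial and DU145 markers was 1300 to 1880 in the shGFP arrays and 2270 to 3380 in the shDCUN1D1 arrays, that of the endothelial markers 15 to 16.4 and 13.5 to 13.7, and the other sums overlapped. Nearly all of the epithelial sum is VIM, which lay between 10.28 and 11.62 log2 and was higher in both knockdown arrays than in both control arrays. KRT18 and KRT8 also had positive differences, that of KRT18 mainly from shDCUN1D1 replicate 1. CD44 was lower past the fold bound defined below, at −1.09, and KRT7, KRT19, EPCAM and CDH1 had negative differences. The fibroblast marker PDGFRB was also lower past that bound, at −1.01. The part of these shifts in the differences below was not tested. On its brightest probe set the targeted gene DCUN1D1 read 2.55 and 1.99 with shGFP and 1.60 and 1.45 with shDCUN1D1. The gene's log2 fold change there was −0.75 (standard error 0.26), and it was below the reference in all 4 arrays. Its other 5 probe sets differed by −0.47 to 0.12, 3 of them negative and 2 positive, and none of the 6 was past the bound. The paper reports a significant reduction of DCUN1D1 in infected DU145 cells, by real-time PCR for the mRNA and by Western blot for the protein. Whether those were the cultures on the arrays is not stated.

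Among the deadenylase subunits, CNOT7 and CNOT1 had more signal in both knockdown arrays than in both control arrays and exceeded the fold bound used by the study. CNOT2 was bright in every array with overlapping groups, and the remaining genes lay mostly below the background reference. The fold bound counts a gene as higher or lower when the lower end of the 90% interval of its fold change exceeds 1.2. At the level of genes, each represented by its probe set of highest mean over the 4 arrays, 2 of the 10 members were higher past the bound, beside 1.57% of all genes, and 0 were lower, beside 3.64% of all genes. Since the contrast entered the choice of the list, nothing is read from these shares. The representative of CNOT1, CNOT7 and CNOT8 also depended on the knockdown arrays: another probe set of each of these 3 was the brightest in the controls. When the probe set brightest in the control arrays stood for each gene, an alternative chosen after seeing the data, 0 of the 10 members were past the bound and their median log2 fold change was 0.030, beside −0.05 for all genes. limma with Benjamini–Hochberg adjustment at 0.05 called 0 of the 19774 genes, members included. Without adjustment, 463 genes (2.34%) had a positive and 1196 (6.05%) a negative difference at p under 0.05. By the methods' t-test these numbers were 363 (1.84%) and 1129 (5.71%), and 1 gene (0.00506%) was called by that test once adjusted. The median log2 fold change of the 10 genes was 0.30, beside −0.01 for all genes, and that of the 29 probe sets was 0.02, beside −0.01 for all 40914.

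**Figure D1:**
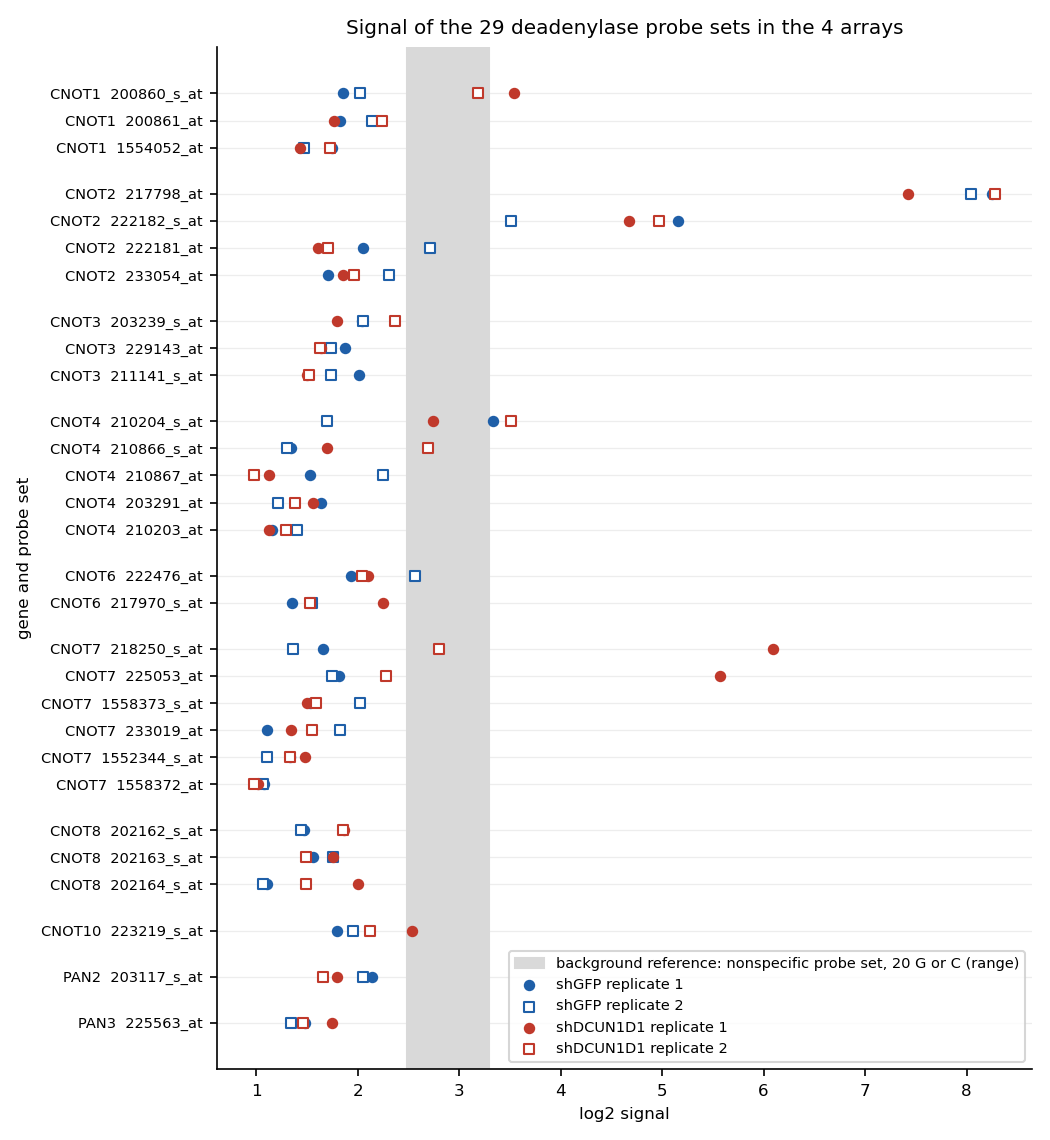
Log2 signal of the 29 deadenylase probe sets (rows, grouped by gene) in each of the 4 arrays, shGFP in blue and shDCUN1D1 in red. Circles are replicate 1 and squares replicate 2. The grey band spans the background reference over the arrays, 2.48 to 3.30. The CNOT2 probe sets 217798_PM_at and 222182_PM_s_at lie to its right in all 4 arrays, and CNOT7 at 6.09 and 5.57 in shDCUN1D1 replicate 1.

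CNOT7, the CAF1-type nuclease, carried the largest difference of the list. On its brightest probe set, 218250_PM_s_at, it read 1.65 and 1.36 in shGFP replicates 1 and 2 and 6.09 and 2.80 in shDCUN1D1 replicates 1 and 2. The groups did not overlap, but the knockdown replicates lay 3.30 log2 apart, more than the difference between the groups. The mean was 1.51 ± 0.20 (SD, n = 2) for shGFP and 4.44 ± 2.33 (SD, n = 2) for shDCUN1D1, a log2 fold change of 2.94 (standard error 1.11). Both control values lie under the background reference. With the controls counted at that reference, the knockdown mean was at least 2.48-fold higher. This bound rests on shDCUN1D1 replicate 1 alone, as the 2.80 of replicate 2 lies below the reference in both control arrays. Without shDCUN1D1 replicate 1 the log2 fold change was 1.29, and without shDCUN1D1 replicate 2 it was 4.58. The gene was not past the fold bound without shGFP replicate 1 or without shGFP replicate 2, when the log2 fold changes were 3.08 and 2.79.

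The 6 CNOT7 probe sets gave different pictures. A second probe set, 225053_PM_at, repeated the pattern at 1.82 and 1.75 with shGFP and 5.57 and 2.28 with shDCUN1D1, a log2 fold change of 2.14 (standard error 1.08) that was not past the bound and was 0.50 without shDCUN1D1 replicate 1. The other 4 read between 0.98 and 2.02 in every array, below the reference, with log2 fold changes of −0.23, −0.07, −0.02 and 0.19. Averaged over the 6 probe sets, the log2 fold change was 0.82 and not past the bound. The array values thus give a high CNOT7 signal in shDCUN1D1 replicate 1 on 2 of 6 probe sets and a value just above the reference in shDCUN1D1 replicate 2 on 1 of 6.

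shDCUN1D1 replicate 1 was also the array with the brightest GAPDH probe sets at the 3′ end, middle and 5′ end, and with the brightest ACTB probe sets at the 3′ and 5′ ends. GAPDH and ACTB are housekeeping genes whose control probe sets report RNA quality. The GAPDH 3′ control read 5.02 and 4.68 in the shGFP arrays, 10.82 in shDCUN1D1 replicate 1 and 5.09 in replicate 2, and the GAPDH 5′ control 6.60, 6.42, 9.67 and 7.14 in the same order. The middle GAPDH control read 9.39, 9.05, 11.07 and 10.01, again in that order. The ACTB 3′ control read 4.05 and 3.95 in the shGFP arrays, 8.30 in shDCUN1D1 replicate 1 and 4.35 in replicate 2. The ACTB 5′ control read 9.21 in shDCUN1D1 replicate 1 and 8.52, 8.06 and 8.79 in the others, and the middle ACTB probe set read 10.48 and 10.55 in the same knockdown arrays. For GAPDH the 3′ control was dimmer than the 5′ control in every array except shDCUN1D1 replicate 1, and for ACTB in all 4 arrays. Which arrays hold the sounder RNA was not tested. The part of these control readings in the CNOT7 difference was not tested either. The genes whose 4 values, after subtraction of each gene's own mean, lay closest to CNOT7 were RNASEK, CSE1L, SLC7A1, SET and HSPA5, at root mean square distances of 0.08 to 0.20 log2 over the 4 arrays. Being chosen for this likeness, they share its high value in shDCUN1D1 replicate 1, for example 7.08 against 3.57 in replicate 2 for RNASEK.

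**Figure D2:**
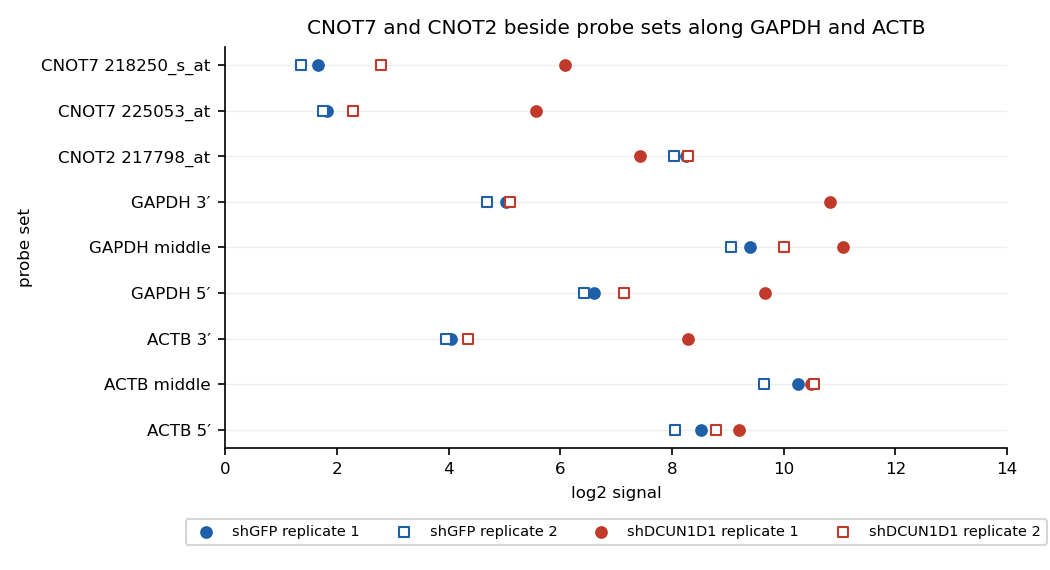
Log2 signal in the 4 arrays for CNOT7 probe sets 218250_PM_s_at and 225053_PM_at, CNOT2 probe set 217798_PM_at, and the control probe sets at the 3′ end, middle and 5′ end of GAPDH and ACTB, with colours by group and marker shape by replicate. Both CNOT7 rows, both 3′ rows and the GAPDH 5′ row have shDCUN1D1 replicate 1 far to the right of the other arrays, whereas CNOT2 has it on the left, at 7.42.

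CNOT8, the paralogue that can take the place of CNOT7 in the complex, read 1.47 and 1.44 with shGFP and 1.86 and 1.85 with shDCUN1D1 on its brightest probe set. The groups did not overlap and the replicates lay within 0.03 log2 of each other. The log2 fold change was 0.40 (standard error 0.15), with a 90% interval of 0.10 to 0.70, short of the bound. Leaving out any array gave 0.39 to 0.42. The CNOT8 probe set brightest in the controls was another, 202163_PM_s_at, which differed by −0.03. The probe set 202164_PM_s_at read 1.11 and 1.07 with shGFP and 2.0 and 1.49 with shDCUN1D1, a log2 fold change of 0.66, or 0.40 without shDCUN1D1 replicate 1. All 3 lay below the reference in all 4 arrays. Whether the transcript was above a background matched to its own probes was not tested.

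CNOT6, the CCR4-type nuclease, was also below the reference. Its probe set 222476_PM_at read 1.93 and 2.57 with shGFP and 2.10 and 2.04 with shDCUN1D1, a log2 fold change of −0.18 (standard error 0.30) with overlapping groups. Its other probe set, 217970_PM_s_at, read 1.35 and 1.55 with shGFP and 2.25 and 1.53 with shDCUN1D1, a log2 fold change of 0.44 (standard error 0.28), or 0.08 without shDCUN1D1 replicate 1. The sign differed between the probe sets, and neither was above the reference in any array.

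CNOT1, the scaffold on which the complex is built, was the other member past the bound, with knockdown replicates close to each other. Probe set 200860_PM_s_at read 1.85 and 2.02 with shGFP and 3.54 and 3.19 with shDCUN1D1. The means were 1.94 ± 0.12 (SD, n = 2) and 3.36 ± 0.25 (SD, n = 2), a log2 fold change of 1.43 (standard error 0.29). Both knockdown values were above the reference of their array and both control values below theirs. The references were higher in the controls, and the 3.19 of shDCUN1D1 replicate 2 lies below the 3.30 of shGFP replicate 2. With the controls counted at the reference of their own array, the knockdown mean was at least 1.17-fold higher. The log2 fold change was 1.25 without shDCUN1D1 replicate 1 and at most 1.60 when any other array was left out, and CNOT1 was past the bound in each of these 4 fits. The other 2 CNOT1 probe sets differed from this. Probe set 200861_PM_at, the brightest of the 3 in the controls, read 1.83 and 2.14 with shGFP and 1.76 and 2.24 with shDCUN1D1, and 1554052_PM_at read 1.75 and 1.47 against 1.43 and 1.73. Their log2 fold changes were 0.02 and −0.03, and the mean over the 3 probe sets had 0.47, not past the bound.

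CNOT2 and CNOT3 form the module that docks at one end of CNOT1, and CNOT10 belongs to the module at its other end. CNOT2 was the only member gene above the reference in all 4 arrays. On 217798_PM_at it read 8.25 and 8.04 with shGFP and 7.42 and 8.28 with shDCUN1D1, with shDCUN1D1 replicate 1 the lowest of the 4. The log2 fold change was −0.30 (standard error 0.48), with a 90% interval of −1.27 to 0.68, and it was 0.13 without that array and −1.0 after quantile normalization. The other bright CNOT2 probe set, 222182_PM_s_at, read 5.15 and 3.51 with shGFP and 4.67 and 4.97 with shDCUN1D1, where the low value of shGFP replicate 2 gave a log2 fold change of 0.49 (standard error 0.75). The dim probe set 222181_PM_at read 2.05 and 2.72 with shGFP and 1.61 and 1.71 with shDCUN1D1, a log2 fold change of −0.72 (standard error 0.29) below the reference in all arrays. The fourth, 233054_PM_at, differed by −0.10.

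CNOT3 read 2.04 and 2.05 with shGFP and 1.80 and 2.37 with shDCUN1D1 on its brightest probe set, a log2 fold change of 0.04 (standard error 0.27). Its other 2 probe sets were lower in both knockdown arrays than in both controls, with log2 fold changes of −0.17 and −0.36, at means of 1.72 and 1.69. The nonspecific probe set with 15 G or C bases, with a mean of 1.72, differed by −0.34, and its part in these differences was not tested. CNOT10 had a single probe set, at 1.80 and 1.95 with shGFP and 2.54 and 2.12 with shDCUN1D1. Its log2 fold change was 0.46 (standard error 0.25), or 0.25 without shDCUN1D1 replicate 1, and it was above the reference in that array alone.

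CNOT4, a RING-type ubiquitin ligase associated with the complex, had 5 probe sets that went in both directions. The brightest, 210204_PM_s_at, read 3.33 and 1.69 with shGFP and 2.74 and 3.51 with shDCUN1D1, so that the groups overlapped. Its log2 fold change was 0.61 (standard error 0.65), but −0.21 without shGFP replicate 2 and 1.43 without shGFP replicate 1. Probe set 210866_PM_s_at read 1.34 and 1.31 with shGFP and 1.69 and 2.69 with shDCUN1D1, a log2 fold change of 0.87 (standard error 0.35). Probe set 210867_PM_at was lower with shDCUN1D1, from 1.53 and 2.25 with shGFP to 1.13 and 0.98 with shDCUN1D1, a log2 fold change of −0.84 (standard error 0.26). It was the only member probe set lower past the bound, and all of its values lay below the reference. The remaining CNOT4 probe sets, 203291_PM_at and 210203_PM_at, differed by 0.05 and −0.07.

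The PAN2 and PAN3 pair was measured by 1 probe set each, below the reference in all 4 arrays. PAN2, the nuclease, read 2.14 and 2.05 with shGFP and 1.80 and 1.65 with shDCUN1D1, the only member gene with both knockdown arrays below both controls. Its log2 fold change was −0.37 (standard error 0.19), and −0.44 to −0.30 when an array was left out. The nonspecific probe set with 16 G or C bases, whose mean of 1.91 equals that of PAN2, differed by −0.38 between the same arrays. The part of the background in the PAN2 difference was not tested. PAN3, the subunit that ties PAN2 to the poly(A)-binding protein, read 1.48 and 1.34 with shGFP and 1.75 and 1.46 with shDCUN1D1. Its log2 fold change was 0.19 (standard error 0.16), or 0.05 without shDCUN1D1 replicate 1, and the groups overlapped.

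**Figure D3:**
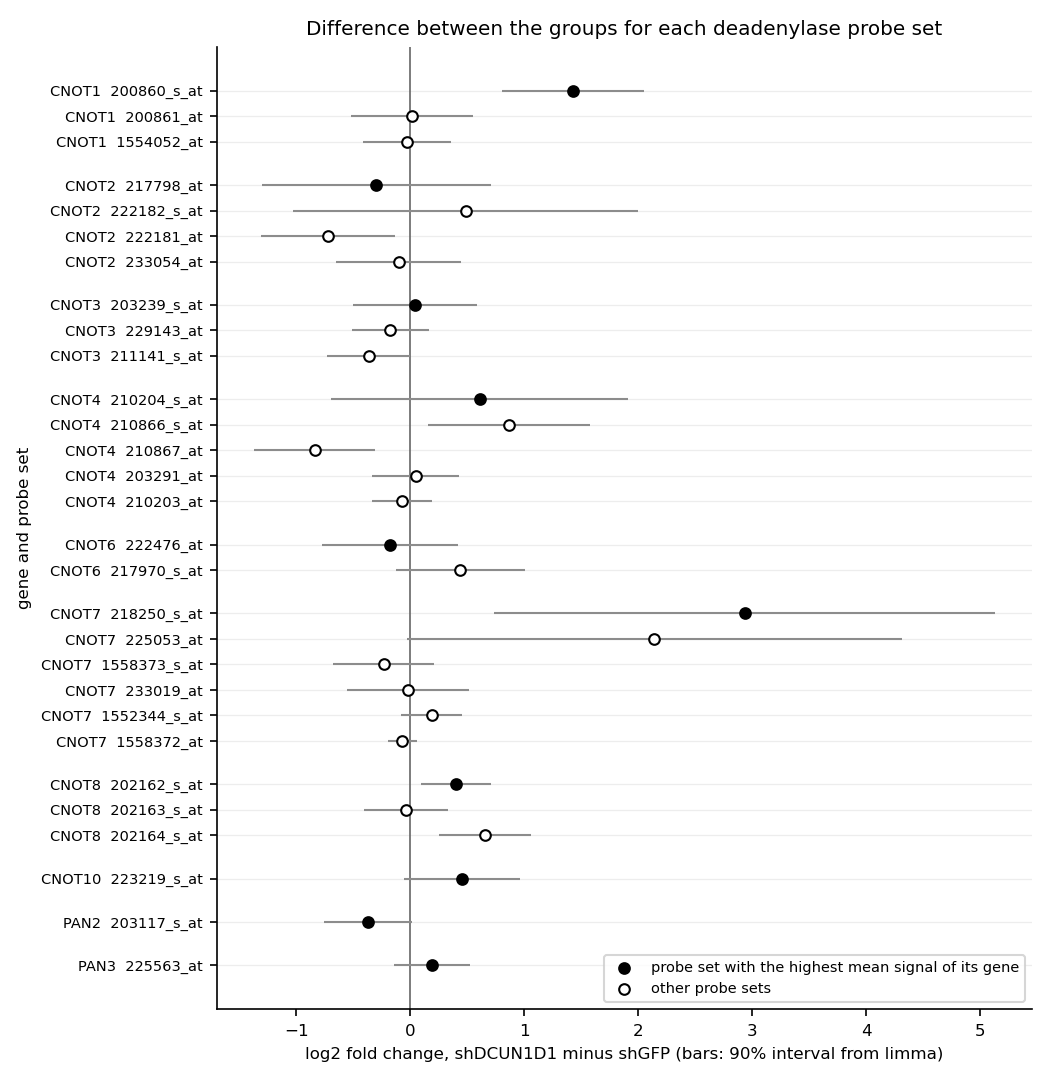
Log2 fold change, shDCUN1D1 minus shGFP, of each of the 29 probe sets (rows), with the 90% interval from limma as bars. Filled points are the brightest probe set of a gene and open points the others. The CNOT7 probe set 218250_PM_s_at, at 2.94, has the widest interval, while the other CNOT1 probe sets sit near 0 beside 1.43 for the brightest.

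Across the list, 15 of the 29 probe sets had a positive and 14 a negative log2 fold change, beside 48.3% positive among all 40914. Of the 10 member genes, 7 were positive and 3 negative, beside 48.5% positive among all genes. The list was chosen with the contrast known, so nothing is read from these counts. Higher past the bound were 2 probe sets, beside 1.18% of all probe sets, and lower was 1, beside 2.38%. Both knockdown arrays were above both controls for 7 of the 29, beside 17.9% of all probe sets, and below both for 6, beside 25%. At the level of genes the counts were 4 above (CNOT1, CNOT7, CNOT8 and CNOT10), beside 18.4% of all genes, and 1 below (PAN2), beside 26.3%. Among the 7 genes with several probe sets, every one had at least 1 probe set of each sign. The matching share over all genes was not computed, and nothing is read from this count. Only 2 of the 29, both of CNOT2, were above the reference in all 4 arrays, 6 were above it in 1 to 3 arrays and 21 in none. The number of member genes above the reference was 2 and 1 in the shGFP arrays and 5 and 4 in the shDCUN1D1 arrays, whose reference values were lower.

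The sign of the difference was kept in all of its alternatives for CNOT1, CNOT7, CNOT10, PAN2 and PAN3, and turned in 1 or 2 of 12 or 13 for CNOT2, CNOT3, CNOT4, CNOT6 and CNOT8. The variance models, replicate block, unmoderated standard errors and signal filter leave each log2 fold change as it is and cannot turn a sign. Leaving out 1 array cannot turn it where the groups do not overlap. CNOT10, PAN2 and PAN3 have 1 probe set, so the choice of probe set leaves them unchanged. The counts of 12 or 13 are therefore no measure of robustness. For CNOT1 the value ranged down to 0.02, with the probe set brightest in the controls, and for CNOT7 to 0.82, as a mean over probe sets. CNOT2 and CNOT3 turned without shDCUN1D1 replicate 1 and without shDCUN1D1 replicate 2, respectively, CNOT4 and CNOT6 without shGFP replicate 2, CNOT8 with the probe set brightest in the controls, and CNOT3 and CNOT6 also as a mean over probe sets. As means over their probe sets, 0 of the 10 genes were past the bound. With unmoderated standard errors CNOT1 and CNOT8 were past it and CNOT7 was not.

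**Figure D4:**
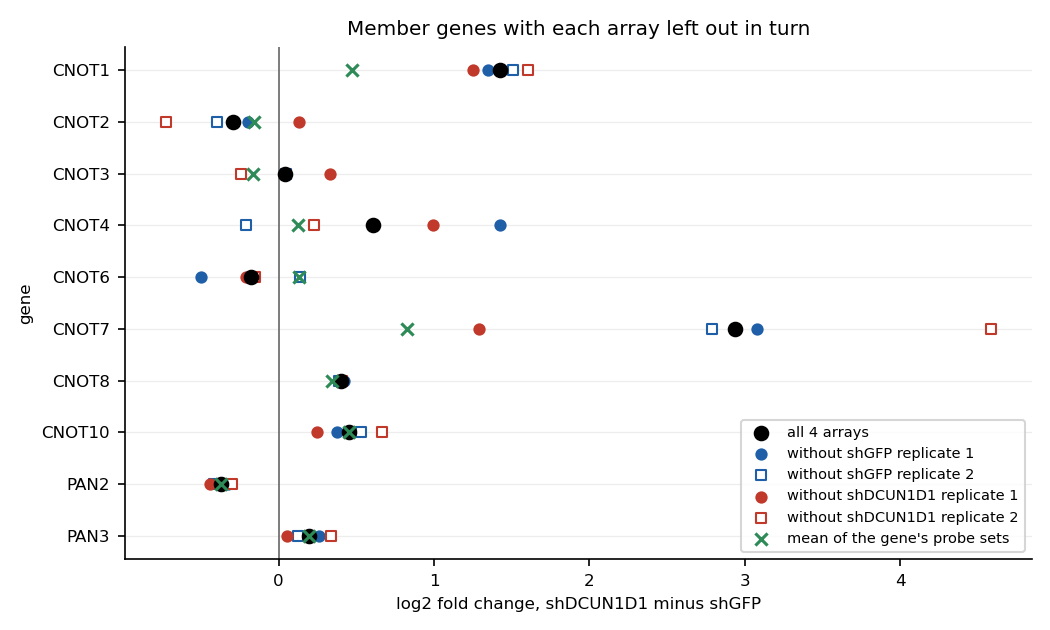
Log2 fold change, shDCUN1D1 minus shGFP, of each member gene with all 4 arrays (black) and with each array left out in turn (blue for an shGFP array, red for an shDCUN1D1 array, filled for replicate 1 and open for replicate 2), and as the mean over the gene's probe sets (green crosses). CNOT7 ranges from 1.29 to 4.58, CNOT1 from 1.25 to 1.60 and CNOT8 from 0.39 to 0.42.

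The other genes of tail shortening and of the decay that follows it were read from 7 lists, of which 81 of 85 genes were measured. The lists were written from general knowledge, but with earlier results of these data known. Past the bound were 2 higher and 2 lower genes, beside 1.57% and 3.64% of all genes. The median log2 fold change of the 81 was 0.22, and 0.07 without shDCUN1D1 replicate 1. limma's adjusted p called none of the 19774 genes, so none of these either.

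The CCR4-NOT subunits outside the 10 were CNOT6L, CNOT9, CNOT11 and TNKS1BP1, and 0 of these 4 were past the bound on their brightest probe set. CNOT6L, the paralogue of CNOT6, read 3.72 and 2.87 with shGFP and 4.08 and 5.13 with shDCUN1D1, a log2 fold change of 1.31 (standard error 0.59), here higher in shDCUN1D1 replicate 2, or 0.26 as the mean over its 5 probe sets. CNOT9, an adaptor-binding subunit, read 1.88 and 1.63 with shGFP and 2.15 and 2.94 with shDCUN1D1, a log2 fold change of 0.79, or 0.23 as the mean over its 6 probe sets. Its probe set 213179_PM_at was higher past the bound at a log2 fold change of 0.61, from 1.44 and 1.45 to 2.04 and 2.08. CNOT11, the partner of CNOT10, had 0.94, or 0.29 without shDCUN1D1 replicate 1, and read 2.92 and 1.62 with shDCUN1D1, and TNKS1BP1 had −0.23. A positive difference was seen for 3 of these 4 subunits, beside 48.5% of all genes, with a median of 0.87 over the 4, of 0.74 without shDCUN1D1 replicate 1 and of 0.59 without shDCUN1D1 replicate 2.

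Of the other lists, the 7 remaining deadenylases and related nucleases, the 5 BTG and TOB proteins that bind CNOT7 and CNOT8, the 9 poly(A)-binding proteins and their partners, and the 19 adaptors that recruit CCR4-NOT each had 0 genes past the bound in either direction. Their median log2 fold changes were −0.08, 0.22, 0.07 and 0.10. The 20 genes of decapping and 5′ to 3′ decay had 0 higher and 2 lower. LSM14B, a protein of translationally repressed mRNA, read 3.29 and 2.89 with shGFP and 2.18 and 2.25 with shDCUN1D1, a log2 fold change of −0.87 (standard error 0.30). In the fit of all probe sets on their own, LSM14B missed the bound. It was not past the bound when any 1 array was left out or with the replicate block. NUDT16, a nucleotide hydrolase with decapping activity, read 1.97 and 2.74 with shGFP and 1.43 and 1.18 with shDCUN1D1, a log2 fold change of −1.05 (standard error 0.31), or −0.17 as the mean over its 4 probe sets, below the reference in all arrays.

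The 17 genes of the exosome and Ski complex, which degrade the deadenylated mRNA from its 3′ end, had 2 higher and 0 lower. MTREX, a helicase of the nuclear exosome, was above the reference in all 4 arrays, at 4.46 and 3.47 with shGFP and 6.09 and 5.09 with shDCUN1D1. Its log2 fold change was 1.62 (standard error 0.65), or 0.73 as the mean over its 3 probe sets and 1.13 without shDCUN1D1 replicate 1. In the fit of all probe sets on their own, MTREX missed the bound. It was past the bound in only 1 of the 4 fits that leave out an array, that without shDCUN1D1 replicate 2, and not after quantile normalization. HBS1L, a translational GTPase with a splice form that links the exosome to the Ski complex, read 2.29 and 1.97 with shGFP and 4.19 and 3.44 with shDCUN1D1. Its log2 fold change was 1.68 (standard error 0.40), or 0.44 as the mean over its 4 probe sets. EXOSC4, a subunit of the exosome ring, was past the bound on a probe set that is not its brightest, 218695_PM_at, with 1.61 and 1.41 with shGFP and 4.61 and 2.33 with shDCUN1D1. As means over probe sets, 0 of the 81 genes were past the bound.

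**Figure D5:**
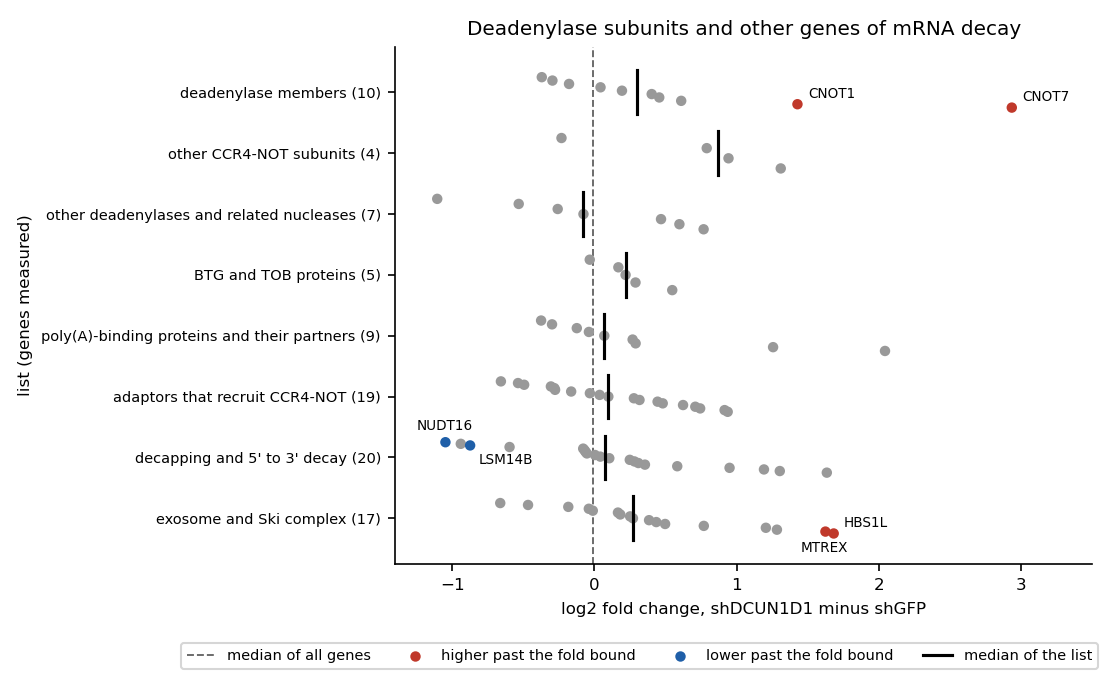
Log2 fold change, shDCUN1D1 minus shGFP, of each gene (points) of the 10 deadenylase subunits and of 7 further lists of mRNA decay, with the number of genes measured in parentheses. Black bars are list medians, the dashed line is the median of all genes, −0.01, and the named red and blue points are the genes higher and lower past the fold bound. The medians lie between −0.08 and 0.87.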

How the data were processed

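RNA of 4 DU145 samples was hybridised to 1 single-channel array each. The values the authors deposited are log2 signals, 1 per probe set and array. Affymetrix Expression Console is named in the submitters' processing notes, without a version, and dChip with a smoothing spline in the paper's methods. Which of them produced the table is unclear. The table holds no detection calls, so the nonspecific probe set with 20 G or C bases served as the background reference.

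Gene names came from the platform annotation. Of the 40914 that name 1 gene, 40858 matched the RefSeq gene table (GRCh38.p14) by gene ID. The probe set with the highest mean over all arrays stood for its gene, and for dim genes this choice can follow the group with more signal. All 40914 probe sets were also fitted on their own. Differences, standard errors and 90% intervals came from limma 3.58.1 under R 4.3.3, using a trend of the variance with signal, and p-values were adjusted by Benjamini–Hochberg over all genes or all probe sets. Figures were drawn with matplotlib 3.10.9. The fits were tested on simulated arrays. The cut-off of 1.2 at 90% was taken from the paper and computed without dChip. Arrays give no read depth, and precision depends on their number and on the signal over background. With 2 arrays in each group, the smallest exact two-sided permutation p is 0.333. The p-values measure only the spread between these arrays.

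The members and the gene lists were chosen with earlier results of these data known. Named were all members, every listed gene past the bound, probe sets past the bound that are not the brightest, and the 5 genes most like CNOT7. The remaining CCR4-NOT subunits are named to complete a count, after their values were seen. Probe positions and sequences were not used here. Of the listed genes, 4 were not analysed here. The alternatives are quantile normalization, median centring, a filter on dim genes, other variance models, a replicate block and unmoderated standard errors (Student's t-test). Further ones are other bounds, averaging all probe sets of a gene and leaving out each array. Chosen after seeing the data was a filter to genes above the background reference in both arrays of a group. The probe set brightest in the control arrays as representative was also chosen after seeing the data.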

Additional observations from a re-analysis of the deposited data

How the results depend on the processing

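Most member probe sets lie below the background reference, and there are 2 arrays per group. Both limit every value here. Another nonspecific control as the reference was not tested. Beside the main counts past the fold bound (2 member genes higher and 0 lower, 2 member probe sets higher and 1 lower, 311 genes higher and 720 lower, and 2 higher and 2 lower in the other lists), the following differed, and the cause was not tested. The lower member probe set, of CNOT4, was lost (0 lower) without a variance trend, with the replicate block, with unmoderated standard errors, at a bound of 1.5, and with the filter to the brighter part of the table, where 17 of 29 probe sets were tested. In the other lists, quantile normalization gave 1 higher gene, unmoderated standard errors 1 higher, a bound of 1.5 gave 1 higher and 0 lower, the filter 1 lower, no trend 4 lower and the replicate block 1 lower. Over all genes, unmoderated standard errors gave 177 higher. At a bound of 1.0, 5 member probe sets were higher and 2 lower, 1105 genes were higher and 2196 lower, and 7 and 6 in the other lists. At 1.5, 85 genes were higher and 256 lower. By a plain fold change above 1.2, 5 member genes were higher and 2 lower, 10 member probe sets higher and 5 lower, 4877 genes higher and 4474 lower, and 38 and 16 in the other lists. When all probe sets of a gene were averaged, 0 member genes were higher, 172 genes were higher and 412 lower, the other lists had 0 higher and 0 lower, and the members' median log2 fold change was 0.16. It was 0.46 among the 7 members that passed the filter to brighter genes. Among genes above the background reference in both arrays of a group, chosen after seeing the data, 406 were lower and 0 in the other lists. With the probe set brightest in the control arrays standing for each gene, also chosen after seeing the data, 0 member genes were higher, the members' median was 0.030, and CNOT8 turned to −0.03. Quantile normalization moved CNOT2 from −0.30 to −1.0.

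Without each array in turn, 1 to 2 member genes were higher, 0 to 5 member probe sets higher and 0 to 2 lower, 39 to 2253 genes higher and 343 to 923 lower, and 0 to 14 higher and 0 to 1 lower in the other lists, with a median log2 fold change of 0.13 to 0.32 for the members. CNOT7 was not past the bound without shGFP replicate 1 and likewise without shGFP replicate 2, the CNOT4 probe set was not without shGFP replicate 2 or without shDCUN1D1 replicate 2, and the CNOT1 probe set was not past it without shGFP replicate 1 when all probe sets were fitted. Without shDCUN1D1 replicate 2, 14 listed genes and 2253 of all genes were higher, and without shGFP replicate 2, 0 and 39. Replicate 1 and replicate 2 carry numbers shared by the groups, but the deviations of same-numbered arrays from their group means correlated at −0.04 over genes, so the numbers were not taken as pairs. The replicate block gave 351 genes higher and 517 lower and left CNOT1 and CNOT7 as the member genes past the bound. When all probe sets were fitted, the CNOT8 probe set 202164_PM_s_at was also higher past the bound with the replicate block. The same held with quantile normalization and with the robust variance model.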
